A study of Mus musculus with 15 samples.

Results

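Extracellular matrix and fibroblast genes were examined in the gastrocnemius of aged female mice, over 43 genes chosen by name. They code for collagens, laminins, matrix glycoproteins, proteoglycans, elastic fibre proteins, enzymes that cross-link or degrade the matrix, their inhibitors, secreted matricellular proteins and the fibroblast receptor Pdgfra. All 43 symbols mapped to 1 Ensembl gene each among the 55450 genes of the count table, and all 43 were among the 16920 genes with enough counts to be tested. C57BL/6JN females older than 17 months had been scored on 5 tests of health and performance, and mice with at most 1 positive frailty marker formed the Low group and mice with 2 or more the High group. The sample labels call these groups robust and frail. Run mice ran downhill on a treadmill set to a decline of 22 degrees at 13 m/min on 2 consecutive days and gave their muscle 24 h after the second bout, while Control mice stayed sedentary in their cages. RNA was sequenced from 15 mice, each library being 1 mouse, with 4 Control and 4 Run mice in the Low group and 3 Control and 4 Run mice in the High group. No transgene or drug was involved, the markers were relative to percentiles of the same cohort, and a single time point after running was sampled.

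The matrix of skeletal muscle has 2 main layers. Each fibre is wrapped in a basement membrane, a sheet of collagen IV and laminins held together by nidogen, and the space between fibres holds fibrils of collagens I, III and V, microfibrils of collagen VI and small proteoglycans that space the fibrils. Fibroblasts marked by Pdgfra make most of the interstitial matrix, tendon cells make the dense matrix where the muscle ends, and both are known to respond to load and damage. Matrix metalloproteinases cut these proteins, and tissue inhibitors of metalloproteinases (the Timp genes) block them.

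Upstream sequence is shown for Timp1, which of the 43 genes had the smallest p for running, for Col3a1, one of the collagens that differed most between mice, and for Ccn1, a secreted protein known as a target of the mechanically regulated YAP and TEAD factors. The table of RefSeq sequences used here (GRCm38.p6) gave an upstream window for 27 of the 43 genes, and the 250 bases before the gene's start are printed from 5′ to 3′, ending at the base before the start, with motif matches in capitals. None of the 3 windows overlaps an annotated exon.
Timp1, chrX:20869916-20870165, plus strand: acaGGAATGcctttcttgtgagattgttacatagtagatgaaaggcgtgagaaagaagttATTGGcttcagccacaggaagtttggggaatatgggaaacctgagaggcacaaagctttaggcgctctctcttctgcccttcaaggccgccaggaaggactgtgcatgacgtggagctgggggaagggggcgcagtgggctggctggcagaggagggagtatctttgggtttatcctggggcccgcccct
Col3a1, chr1:45311288-45311537, plus strand: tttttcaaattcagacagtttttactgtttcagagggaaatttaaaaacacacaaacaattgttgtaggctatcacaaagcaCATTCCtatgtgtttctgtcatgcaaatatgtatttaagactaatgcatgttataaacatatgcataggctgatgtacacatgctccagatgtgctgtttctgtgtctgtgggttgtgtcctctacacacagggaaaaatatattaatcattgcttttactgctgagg
Ccn1, chr3:145649986-145650235, minus strand: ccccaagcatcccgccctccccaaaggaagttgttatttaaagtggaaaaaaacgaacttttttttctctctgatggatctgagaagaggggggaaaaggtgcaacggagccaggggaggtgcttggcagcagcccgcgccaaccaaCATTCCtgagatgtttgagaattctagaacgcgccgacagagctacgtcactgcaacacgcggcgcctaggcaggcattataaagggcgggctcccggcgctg
The motifs searched on both strands were the AP-1 site TGANTCA, the TEAD site GGAATG, the CCAAT box (CCAAT) and the CArG box of serum response factor, and none of these patterns contains another. The Timp1 window holds 1 TEAD and 1 CCAAT match, and the Col3a1 and Ccn1 windows hold 1 TEAD match each. TEAD matches stood in 5 of the 27 windows (18.5%), against 12.6% of 32851 windows of the same length. CCAAT matches stood in 10 windows (37%, against 33.8% of all), the AP-1 site in 1 (Col6a1, against 6.75% of all) and the CArG box in 1 (Lama2, against 1.47% of all). The Lama2 window was placed at a RefSeq start 2816 bases from the gene's GENCODE start. Over the 27 windows this distance was at most 3103 bases. These are letters in a window and not evidence of binding.

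Depth was 19395125 to 30699216 counts per mouse. Low Control mouse D9 (-90.3) and High Run mouse D62 (-58.1) lay far from the other mice on the first principal component. That component held 27.9% of the variance. Some results that rest on D9 and D62 are also given without both, and others are given only with all mice. Muscle fibre markers took 159948 to 235487 CPM, counts scaled to a common library size, per mouse, and none of the 10 fibre markers was at 0. Of 13 fibroblast markers none was at 0 in any mouse, and their summed level was 1767.8 to 2518 CPM in Low Control, 1959 to 2667 CPM in Low Run, 2019.6 to 2541 CPM in High Control and 1271 to 2948 CPM in High Run mice. In whole muscle, fewer cells of a type and less RNA per cell cannot be told apart.

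Levels of different genes were compared as CPM per kilobase of exon, with the length taken over all annotated exons of a gene together. The order of genes can depend on that choice of length. On that scale the most abundant transcripts, averaged over 15 mice, were Fmod (104.3) and Dcn (104.3), the fibril-binding proteoglycans fibromodulin and decorin, followed by Thbs4 (74.0), Sparc (61.1) and Ccn1 (52.01). Collagen I followed at 17.5 for Col1a1 and 14.8 for Col1a2, collagen IV at 14.5 for Col4a1 and 13.9 for Col4a2, and collagen III at 8.35. The lowest were Loxl2 (1.24), a cross-linking enzyme, and Col12a1 (0.82), a fibril-associated collagen. The ratio of the highest to the lowest mouse, all groups included, differed widely between genes. It was 23.2 for Col1a1, 12.2 for Col1a2, 11.3 for Col3a1 and 10.9 for Lox, but 1.59 for Timp3, 1.81 for Col18a1, 1.87 for Lamb1 and 1.89 for Col4a1.

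**Figure D1:**
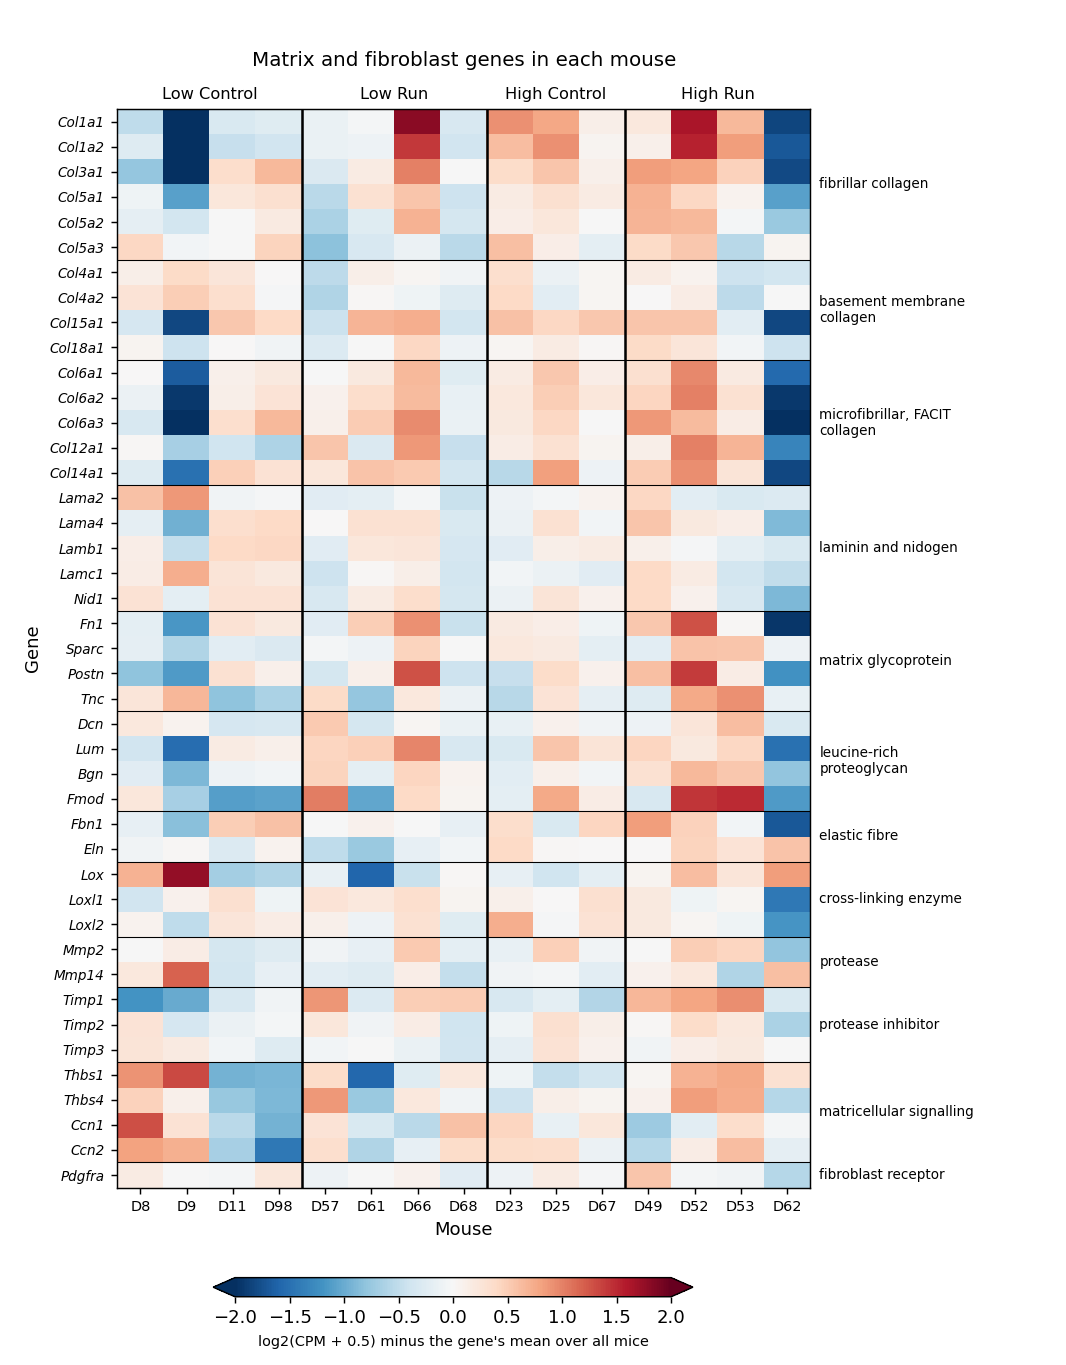
Heat map of the 43 genes (rows, grouped by role) in the 15 mice (columns, grouped by frailty and running), where colour gives log2(CPM + 0.5) minus the gene's mean over all mice. Mice D9 and D62 are blue for collagens I, III and VI, at a median of -2.15 and -1.83, and nearer the mean for collagen IV, at 0.44 and -0.19, and mice D66 and D52 are red for collagen I.

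No matrix gene passed a false discovery rate (FDR) of 0.1 in any of 6 comparisons by edgeR, and neither did any other of the 16920 genes (0%). Differences below are therefore described by their values. The 6 comparisons were running within each frailty group, frailty within each treatment, the Frailty × Run interaction and running adjusted for frailty. In Low mice, 1 of the 43 genes was higher after running at an unadjusted edgeR p under 0.05, against 5.92% of all genes, and 5 were lower, against 7.52%. In High mice 1 was higher (3.28% of all genes) and 0 lower (1.9%). The interaction had 1 positive gene (5.24%) and 0 negative (2.69%). High Control against Low Control had 0 higher (1.8%) and 1 lower (4.06%), and High Run against Low Run had 2 higher (1.52%) and 0 lower (0.987%). Running adjusted for frailty had 2 higher (5.69%) and 1 lower (3.11%). Without mice D9 and D62 these counts, higher and lower, became 1 and 3 in Low mice, 2 and 0 in High mice, 1 and 0 for the interaction, 0 and 0 between controls, 3 and 0 between run groups and 5 and 1 for running adjusted for frailty. The shares of all 16724 genes tested in that fit are not given here, so these counts cannot be set against them. The interaction gene was Lox with all mice and Lamc1 without D9 and D62, and no other gene of the 43 had an interaction at an unadjusted p under 0.05 in either fit.

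The median log2 fold change of the 43 genes with running was 0.12 in Low mice, where that of all genes was 0.02, and 0.00 in High mice, where that of all genes was 0.05. Without Low Run mouse D66 the Low median was -0.04, and without High Run mouse D62 the High median was 0.23. The interaction had a median of -0.12, which became 0.22 without mice D9 and D62. Between control groups the median was 0.17 and between run groups 0.08, against -0.02 and 0.01 for all genes. The control median was 0.07 without D9, and the run-group median was -0.06 without High Run mouse D52 and 0.26 without D62.

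**Figure D2:**
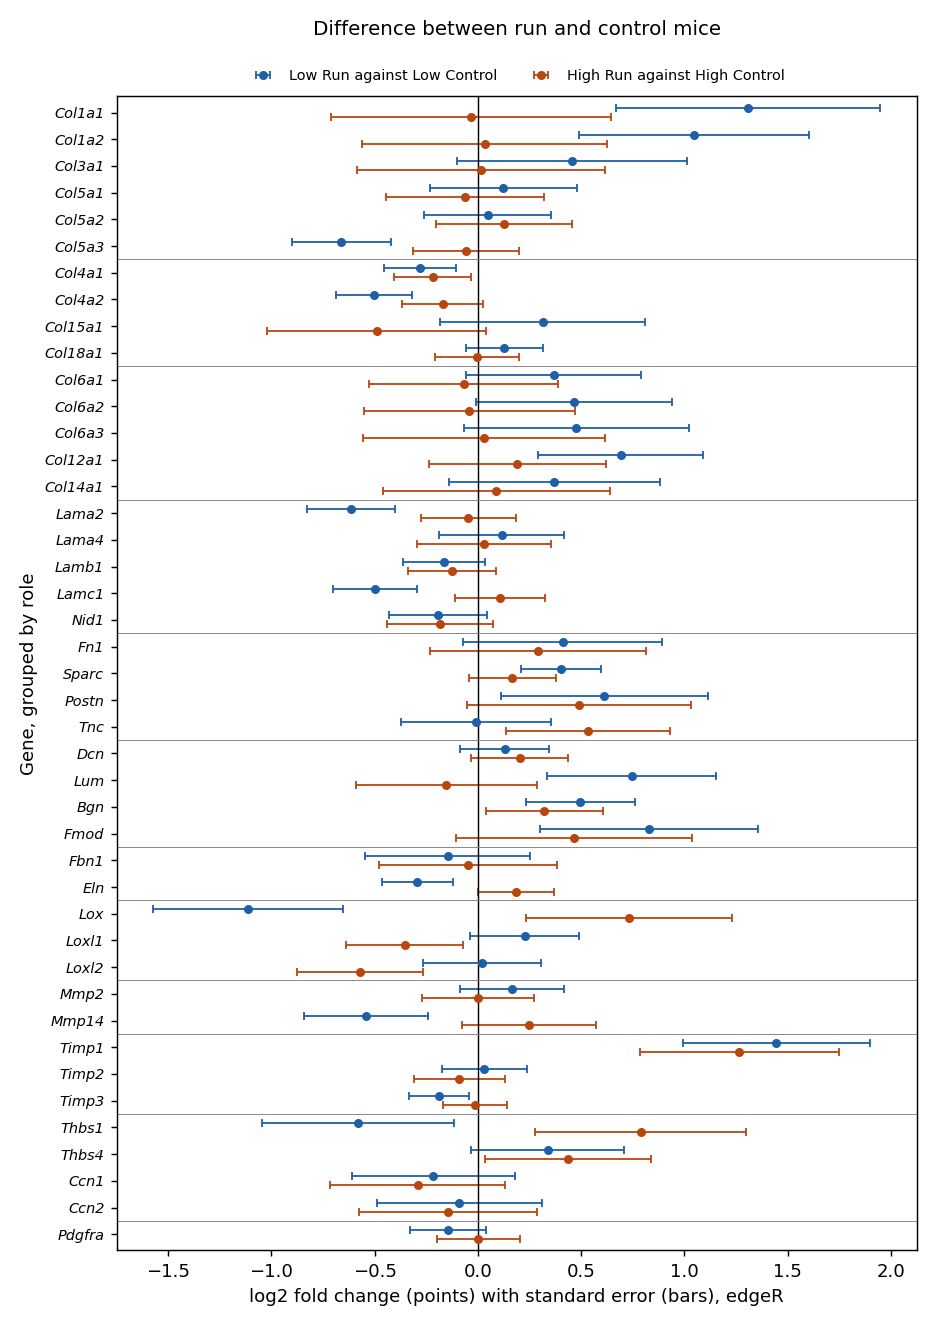
Log2 fold change between run and control mice for each gene (points) with its standard error (bars) in Low mice (blue) and High mice (orange), from edgeR. Timp1 lies at 1.45 and 1.27, whereas Lox lies at -1.11 in Low and 0.73 in High mice.

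Timp1, the inducible member of the Timp family, had the smallest p of the 43 genes for running in Low mice, in High mice and adjusted for frailty. In the order of mice kept throughout (D8, D9, D11 and D98 for Low Control, then D57, D61, D66 and D68 for Low Run, then D23, D25 and D67 for High Control, and D49, D52, D53 and D62 for High Run), Timp1 stood at 0.304, 0.414, 0.973 and 1.24 CPM in Low Control, at 2.86, 1.01, 2.09 and 2.11 CPM in Low Run, at 0.9654, 1.11 and 0.718 CPM in High Control and at 2.39, 2.68, 2.99 and 0.976 CPM in High Run mice. Of the 8 run mice, 6 lay above every control mouse, and the other two, D61 and D62, lay within the range of the controls. Timp1 is a low transcript here, with 7 to 89 counts per mouse. The log2 fold change with running was 1.45 ± 0.45 (edgeR unadjusted p = 0.00561, adjusted p = 0.358) in Low and 1.27 ± 0.48 (edgeR unadjusted p = 0.0187, adjusted p = 0.956) in High mice. Adjusted for frailty it was 1.36 ± 0.32 (edgeR unadjusted p = 0.000587, adjusted p = 0.359), with an exact permutation p of 0.00367 over 2450 arrangements, and the interaction was -0.18 ± 0.65 (edgeR unadjusted p = 0.784). DESeq2 called Timp1 for running adjusted for frailty (log2 fold change of 1.35, DESeq2 adjusted p = 0.0259), as 1 of 109 genes called of 20665 (0.527%), and called no other of the 43 genes in any comparison. Timp2 and Timp3, the other inhibitors, stood at 36.1 and 24.8 CPM per kilobase, against 1.71 for Timp1. Timp2 ran from 88.6 to 179 CPM and Timp3 from 153 to 244 CPM over all mice, and their log2 fold changes with running were 0.03 ± 0.20 (edgeR unadjusted p = 0.879) and -0.19 ± 0.14 (edgeR unadjusted p = 0.216) in Low and -0.09 ± 0.22 (edgeR unadjusted p = 0.691) and -0.01 ± 0.16 (edgeR unadjusted p = 0.928) in High mice.

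Macrophage markers, which are no matrix genes, were read beside Timp1. With running adjusted for frailty, 5.69% of all genes were higher at an unadjusted edgeR p under 0.05. Of 10 macrophage markers, 9 had positive log2 fold changes with running adjusted for frailty, 5 of them at an unadjusted edgeR p under 0.05, among them C1qa at 0.70 ± 0.19 (edgeR unadjusted p = 0.00161) and Cd68 at 0.65 ± 0.19 (edgeR unadjusted p = 0.00286). Their summed level was 96.2 to 180.3 CPM in Low Control, 130.03 to 186 CPM in Low Run, 70.6 to 120.4 CPM in High Control and 111 to 225 CPM in High Run mice, with none at 0. Within Low mice 2 of the 10 were higher with running at an unadjusted edgeR p under 0.05 (5.92% of all genes) and 1 lower (7.52%). The lower one was Cd163, at -0.59 ± 0.24 (edgeR unadjusted p = 0.0264), with an interaction of 1.11 ± 0.35 (edgeR unadjusted p = 0.00637). In High mice 5 were higher (3.28%) and 0 lower (1.9%). The part of macrophages in the Timp1 values was not tested.

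Fibrillar collagens form the tensile cables of the interstitium. Col1a1, a chain of collagen I, stood at 61.7, 13.3, 71.1 and 74.3 CPM in Low Control, at 80.8, 86.1, 309 and 70.6 CPM in Low Run, at 166, 151 and 96.3 CPM in High Control and at 102, 274, 138 and 24.3 CPM in High Run mice. Low Run mouse D66 was more than 3 times any other mouse of its group, and the lowest mice were D9 and D62. The Low Control mean was 69.0 CPM without D9, against 136.5 CPM in Low Run mice. The High Run mean was 171.55 CPM without D62, against 137.8 CPM in High Control mice. The log2 fold change with running was 1.31 ± 0.64 (edgeR unadjusted p = 0.0577) in Low mice, which became 0.51 (edgeR unadjusted p = 0.405) without D66, and -0.03 ± 0.68 (edgeR unadjusted p = 0.962) in High mice. All 3 High Control mice lay above all 4 Low Control mice, with a log2 fold change of 1.322 ± 0.68 (edgeR unadjusted p = 0.0686) and an exact permutation p of 0.0571, where the smallest possible is 0.0286. Without D9 alone this log2 fold change was 0.99 (edgeR unadjusted p = 0.15). Without D9 and D62 it was also 0.99 (edgeR unadjusted p = 0.0663), although D62 is in neither control group. Its partner chain Col1a2, named after its values were seen, had a similar value between controls, at 1.21 ± 0.59 (edgeR unadjusted p = 0.0579), with no overlap between groups.

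Col3a1, the chain of collagen III, stood at 40.7, 12.5, 88.9 and 110.2 CPM in Low Control, at 57.1, 78.6, 141 and 69.5 CPM in Low Run, at 90.3, 103 and 75.4 CPM in High Control and at 125, 121, 96.6 and 19.6 CPM in High Run mice. The Low groups and the High groups overlapped. Running gave 0.46 ± 0.56 (edgeR unadjusted p = 0.426) in Low and 0.02 ± 0.60 (edgeR unadjusted p = 0.98) in High mice on the log2 scale. The Low Control mean was 79.9 CPM without D9, against 86.5 CPM in Low Run mice. The High Run mean was 114.3 CPM without D62, against 89.6 CPM in High Control mice. Col5a3, a chain of collagen V, which starts fibrils, had the opposite sign to the other 5 fibrillar chains in Low mice. Col5a3 stood at 30.2, 21.7, 22.4 and 30.96 CPM in Low Control, at 12.5, 17.9, 20.8 and 15.3 CPM in Low Run, at 34.6, 24.7 and 19.7 CPM in High Control and at 29.4, 33.1, 15.2 and 23.4 CPM in High Run mice. Every Low Run mouse lay below every Low Control mouse, at a log2 fold change of -0.66 ± 0.24 (edgeR unadjusted p = 0.0146, adjusted p = 0.358) and an exact permutation p of 0.0286, the smallest that 4 against 4 mice can give. High mice overlapped, at -0.06 ± 0.26 (edgeR unadjusted p = 0.822), and the interaction was 0.60 ± 0.35 (edgeR unadjusted p = 0.108). Between run groups Col5a3 was higher in High mice, at 0.60 ± 0.24 (edgeR unadjusted p = 0.0235). Of the 6 fibrillar chains, 5 had positive values with running in Low mice (median 0.29) and 3 in High mice (median -0.01), none other than Col5a3 in Low mice at an unadjusted p under 0.05. With length and GC offsets 5 and 6 were positive (medians 0.40 and 0.10), and without D9 and D62 3 and 5 were (medians 0.03 and 0.33).

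**Figure D3:**
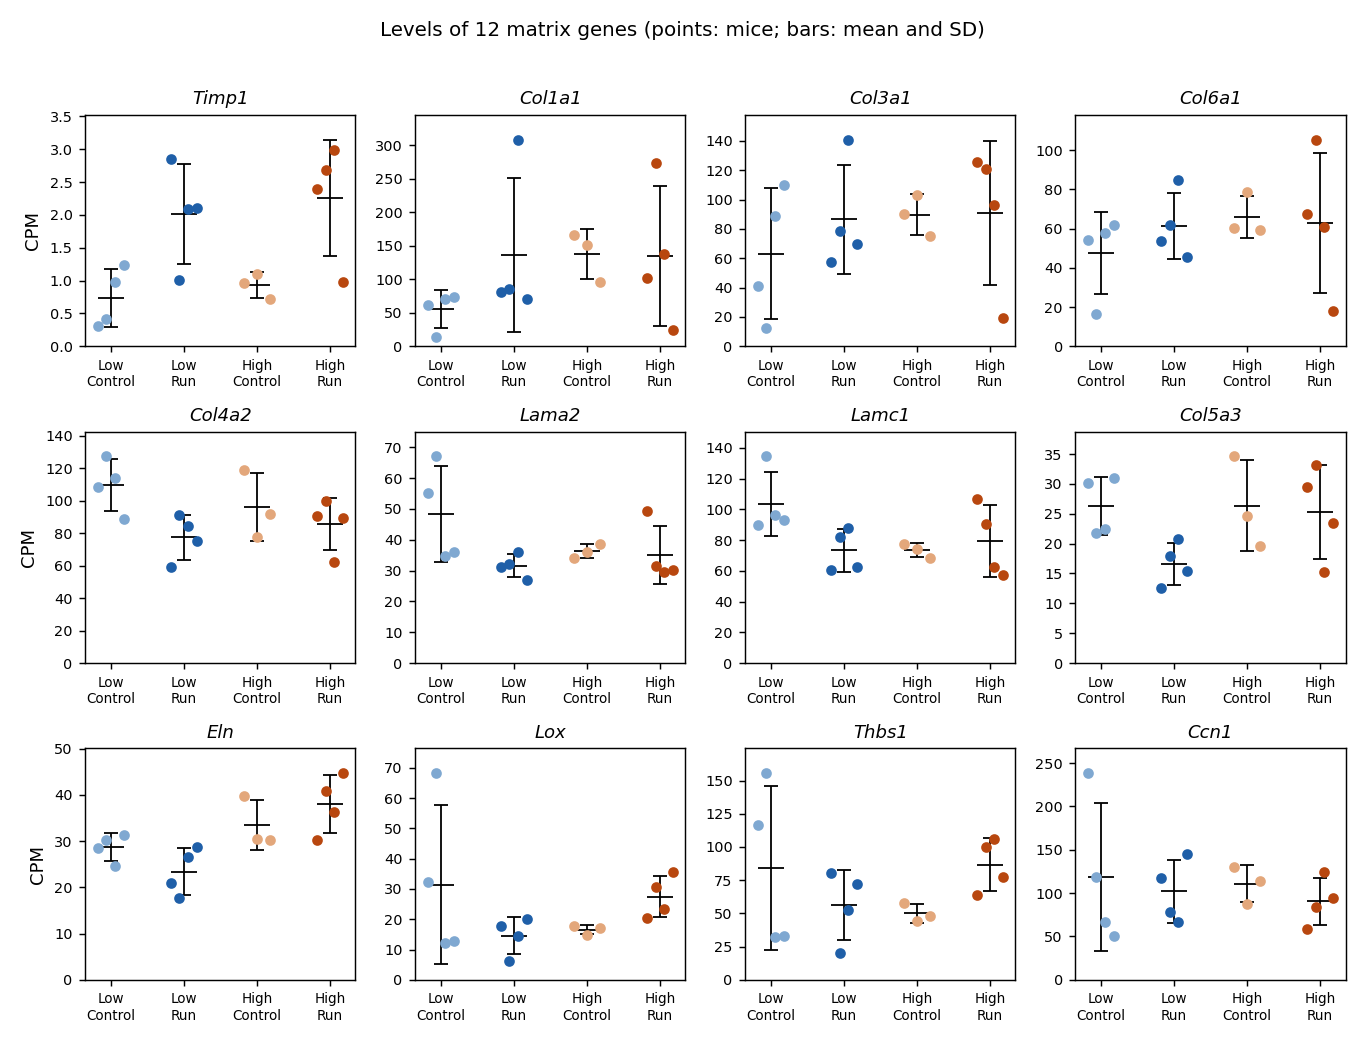
CPM of 12 genes in the 4 groups, with 1 point per mouse, horizontal bars at the mean and whiskers of 1 SD on a linear axis from 0. Timp1 is higher in 6 of 8 run mice than in any control, Col5a3 and Lamc1 do not overlap between the Low groups, and Lox, Thbs1 and Ccn1 spread widely among Low Control mice.

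Collagen IV and 4 of 5 laminin and nidogen genes had negative values with running in Low mice. Col4a1 and Col4a2 code for the paired chains of collagen IV and start on opposite strands of chromosome 8, where their annotated starts overlap by 22 bases. Col4a1 stood at 115, 139.8, 126 and 107 CPM in Low Control, at 73.9, 116, 110.0 and 101 CPM in Low Run, at 135, 98.3 and 109 CPM in High Control and at 119, 111, 79.6 and 82.3 CPM in High Run mice. Col4a2 stood at 108, 127, 114 and 88.9 CPM in Low Control, at 58.9, 91.0, 84.3 and 75.0 CPM in Low Run, at 119, 77.7 and 92.0 CPM in High Control and at 90.8, 99.8, 62.3 and 89.0 CPM in High Run mice. Low Run mice were mostly below Low Control mice for both, with overlap. The log2 fold change with running in Low mice was -0.28 ± 0.17 (edgeR unadjusted p = 0.127) for Col4a1 and -0.50 ± 0.18 (edgeR unadjusted p = 0.0147, adjusted p = 0.358) for Col4a2, and adjusted for frailty it was -0.25 ± 0.13 (edgeR unadjusted p = 0.0595) and -0.35 ± 0.14 (edgeR unadjusted p = 0.0213). In High mice the values were -0.22 ± 0.19 and -0.17 ± 0.20. Endothelial markers, of which 9 of 10 had negative values with running in Low mice (median -0.11, none at 0 in any mouse), summed to 399.8 to 446 CPM in Low Control, 305 to 414 CPM in Low Run, 361 to 389.7 CPM in High Control and 349 to 491 CPM in High Run mice, and their part in these values was not tested. In High mice 8 of the 10 endothelial markers had positive values (median 0.22), where both collagen IV genes had negative ones. The median of the 4 basement membrane collagens in Low mice was -0.08, or 0.05 with length and GC offsets. Col15a1, which links the sheet to fibrils, had 0.31 ± 0.50 (edgeR unadjusted p = 0.536) and Col18a1, the source of endostatin, 0.13 ± 0.19 (edgeR unadjusted p = 0.506) in Low mice.

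Laminins are the cell-binding trimers of the basement membrane. Lama2, the alpha chain of the laminin of muscle fibres, stood at 55.2, 67.1, 34.9 and 36.0 CPM in Low Control, at 31.3, 32.1, 35.9 and 26.9 CPM in Low Run, at 34.2, 35.9 and 38.7 CPM in High Control and at 49.2, 31.5, 29.5 and 30.3 CPM in High Run mice. Low Control mice D8 and D9 were the highest of all mice. The Low log2 fold change was -0.61 ± 0.21 (edgeR unadjusted p = 0.0107, adjusted p = 0.358), and -0.42 (edgeR unadjusted p = 0.045) without D9 and D62. High mice differed by -0.05 ± 0.23 (edgeR unadjusted p = 0.843), with an interaction of 0.57 ± 0.31 (edgeR unadjusted p = 0.0877), or 0.37 (edgeR unadjusted p = 0.204) without D9 and 0.36 (edgeR unadjusted p = 0.221) without D49. Lamc1, the gamma chain shared by most laminins, stood at 89.7, 134, 96.6 and 93.0 CPM in Low Control, at 60.6, 82.1, 87.8 and 62.5 CPM in Low Run, at 77.4, 74.4 and 68.7 CPM in High Control and at 107, 90.4, 62.7 and 57.04 CPM in High Run mice. No Low Run mouse and no High Control mouse reached the lowest Low Control mouse. Running in Low mice gave -0.50 ± 0.20 (edgeR unadjusted p = 0.0257, adjusted p = 0.358) and the control groups differed by -0.49 ± 0.22 (edgeR unadjusted p = 0.0398, adjusted p = 0.704), both with an exact permutation p of 0.0286, the smallest possible. Both used the same Low Control mice, among which D9 was far above the rest. Without D9 alone these differences were -0.35 (edgeR unadjusted p = 0.0964) and -0.35 (edgeR unadjusted p = 0.126). Without D9 and D62 they were -0.35 (edgeR unadjusted p = 0.0594) and -0.35 (edgeR unadjusted p = 0.0824). The interaction was 0.61 ± 0.30 (edgeR unadjusted p = 0.0589), or 0.59 (edgeR unadjusted p = 0.0366) without D9 and D62. Without D9 alone the interaction was 0.46 (edgeR unadjusted p = 0.128), and without D49 it was 0.43. In Low mice Lamb1 had -0.16 ± 0.20 (edgeR unadjusted p = 0.422), Lama4 had 0.11 ± 0.30 (edgeR unadjusted p = 0.709) and the linker Nid1 had -0.19 ± 0.24 (edgeR unadjusted p = 0.429).

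Collagen VI forms beaded filaments between the basement membrane and the interstitium, and collagens XII and XIV bind the surface of fibrils. Col6a1 stood at 54.3, 16.7, 57.6 and 61.95 CPM in Low Control, at 53.7, 61.7, 84.7 and 45.6 CPM in Low Run, at 60.2, 78.5 and 59.2 CPM in High Control and at 67.4, 105, 60.9 and 18.0 CPM in High Run mice. Apart from D9 and D62, which had 16.7 and 18.0 CPM, the mice ran from 45.6 to 105 CPM. The Low Control mean was 57.97 CPM without D9, against 61.4 CPM in Low Run mice. The High Run mean was 77.9 CPM without D62, against 65.96 CPM in High Control mice. Running gave 0.37 ± 0.43 (edgeR unadjusted p = 0.402) in Low and -0.07 ± 0.46 (edgeR unadjusted p = 0.883) in High mice. Col6a2 and Col6a3 had similar values, at 0.47 ± 0.47 (edgeR unadjusted p = 0.34) and 0.48 ± 0.54 (edgeR unadjusted p = 0.396) in Low and -0.04 ± 0.51 (edgeR unadjusted p = 0.937) and 0.03 ± 0.59 (edgeR unadjusted p = 0.959) in High mice. Col12a1, known to be abundant near tendon, stood at 11.6, 7.04, 8.54 and 7.26 CPM in Low Control, at 16.9, 9.22, 21.3 and 8.12 CPM in Low Run, at 12.7, 14.1 and 11.8 CPM in High Control and at 12.4, 23.5, 18.6 and 4.28 CPM in High Run mice. All High Control mice lay above all Low Control mice, at 0.58 ± 0.43 (edgeR unadjusted p = 0.192) on the log2 scale, and running gave 0.69 ± 0.40 (edgeR unadjusted p = 0.103) in Low mice. Col14a1 gave 0.37 ± 0.51 (edgeR unadjusted p = 0.481) and 0.09 ± 0.55 (edgeR unadjusted p = 0.874) with running.

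Mouse D9 was below all its group mates in 24 of the 43 genes and above all in 9, and D62 was below all in 30 and above all in 3. Both were below in 22 genes and above in 2. Col1a1 in D9 was 0.192 of the mean of its group mates and in D62 0.141. For Col6a3 these ratios were 0.164 and 0.149, and for Col15a1 they were 0.225 and 0.21. Col4a2 in contrast stood at 1.226 and 1.06. The median deviation from the mean of all mice over collagens I, III and VI was -2.15 in D9 and -1.83 in D62 on the log2 scale, and 0.44 and -0.19 over collagen IV. Lox and Mmp14 were the 2 genes above in both. Over the 10 fibroblast markers that are not among the 43 genes, D9 had 1107 CPM and D62 had 761 CPM, against 1366 to 1956 CPM in the other mice. Leaving D9 and D62 out moved the median interaction of the 6 fibrillar collagens from -0.31 to 0.27 and that of the 5 microfibrillar and fibril-associated collagens from -0.45 to 0.16.

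**Figure D4:**
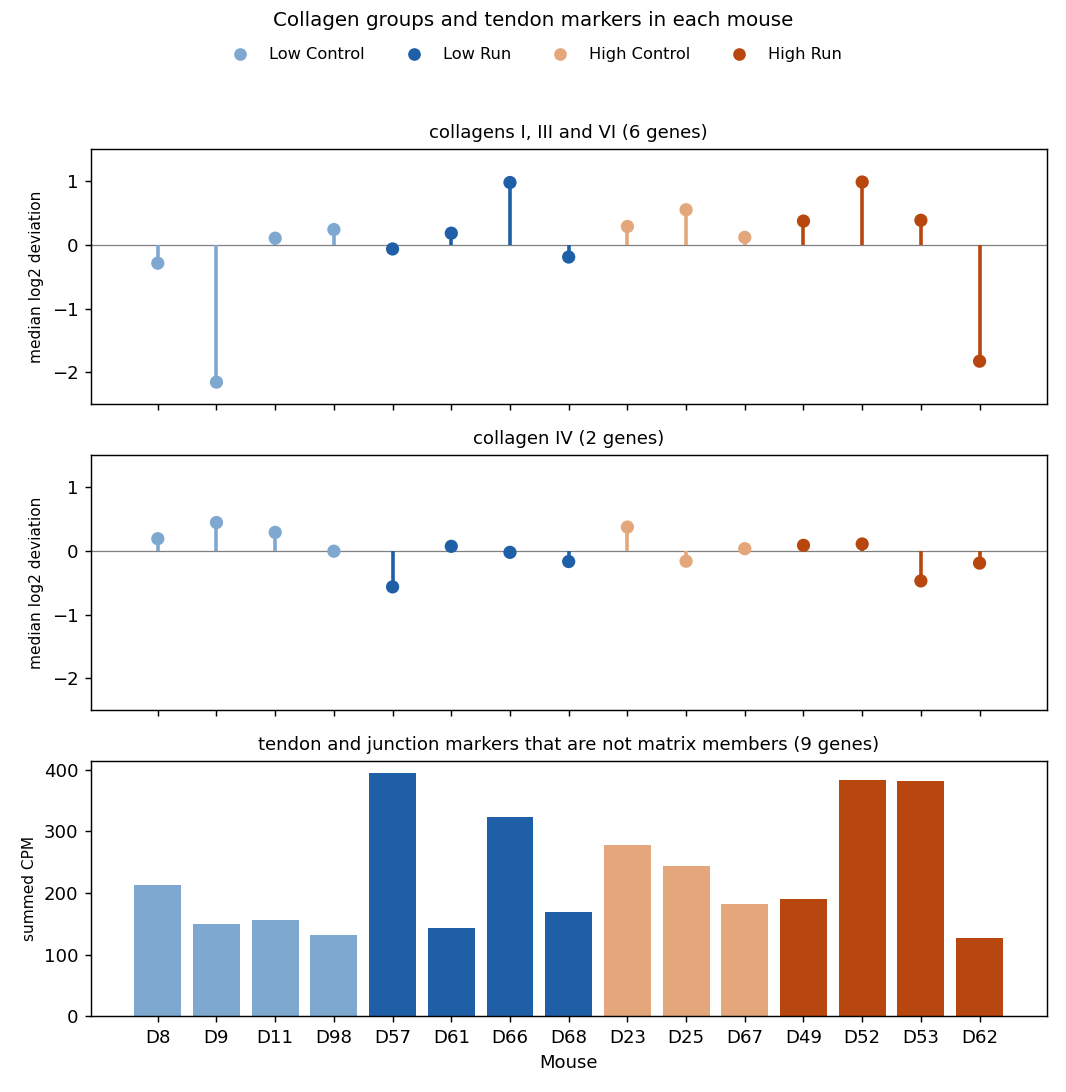
Median log2 deviation from the mean of all mice for 6 genes of collagens I, III and VI (top) and 2 genes of collagen IV (middle), and summed CPM of 9 tendon and junction markers, Ankrd1 among them (bottom), in each of 15 mice coloured by group. Mice D9 and D62 lie at -2.15 and -1.83 in the top panel, and D57, D66, D52 and D53 are the highest in the bottom panel.

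Matrix glycoproteins connect cells to fibrils. Fn1, fibronectin, stood at 69.3, 34.9, 96.4 and 90.9 CPM in Low Control, at 67.8, 112, 149.7 and 58.1 CPM in Low Run, at 89.2, 87.0 and 74.4 CPM in High Control and at 116, 193, 80.3 and 20.1 CPM in High Run mice. High Run mouse D52 was the highest and D62 the lowest, and running gave 0.41 ± 0.48 (edgeR unadjusted p = 0.409) in Low and 0.29 ± 0.52 (edgeR unadjusted p = 0.587) in High mice. Postn, periostin, a glycoprotein induced by matrix remodelling, stood at 7.204, 5.63, 16.1 and 14.0 CPM in Low Control, at 10.0, 14.0, 32.1 and 9.57 CPM in Low Run, at 9.23, 16.9 and 13.7 CPM in High Control and at 19.96, 34.96, 14.3 and 5.32 CPM in High Run mice. D66 and D52 were again the highest mice, and running gave 0.61 ± 0.50 (edgeR unadjusted p = 0.241) and 0.49 ± 0.54 (edgeR unadjusted p = 0.382). Tnc, tenascin C, a marker of loaded tendon and injured muscle, stood at 17.2, 23.1, 8.05 and 9.07 CPM in Low Control, at 18.9, 8.22, 16.7 and 13.3 CPM in Low Run, at 9.69, 17.6 and 12.7 CPM in High Control and at 12.0, 24.7, 27.5 and 12.9 CPM in High Run mice. The groups overlapped, with -0.01 ± 0.36 (edgeR unadjusted p = 0.978) in Low and 0.53 ± 0.40 (edgeR unadjusted p = 0.197) in High mice. Sparc, a collagen-binding protein named after its values were seen, was the only one of the 43 genes with all Low Run values above all Low Control values. Sparc measured 199, 149, 194 and 184 CPM in Low Control and 219, 209, 306 and 225 CPM in Low Run mice, a log2 fold change of 0.40 ± 0.19 (edgeR unadjusted p = 0.0558) with an exact permutation p of 0.0286.

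Small leucine-rich proteoglycans set the spacing of collagen fibrils. Dcn, decorin, stood at 692, 623, 472 and 475 CPM in Low Control, at 855, 465, 613 and 541 CPM in Low Run, at 537, 629.5 and 568 CPM in High Control and at 556, 707, 917 and 481 CPM in High Run mice. The spread within groups was wider than the difference between them, with 0.13 ± 0.22 (edgeR unadjusted p = 0.56) and 0.20 ± 0.24 (edgeR unadjusted p = 0.403) for running. Bgn, biglycan, stood at 79.4, 49.8, 86.4 and 89.3 CPM in Low Control, at 126, 80.5, 125 and 97.8 CPM in Low Run, at 79.8, 99.7 and 89.2 CPM in High Control and at 115, 145, 134 and 53.3 CPM in High Run mice. Adjusted for frailty, running gave 0.42 ± 0.19 (edgeR unadjusted p = 0.043, adjusted p = 0.558) for Bgn, and 0.43 (edgeR unadjusted p = 0.0016) without D9 and D62. Leaving out D9 alone gave 0.32 (edgeR unadjusted p = 0.0891), and leaving out D66 alone gave 0.36 (edgeR unadjusted p = 0.0902). Lum and Fmod had 0.74 ± 0.41 (edgeR unadjusted p = 0.0882) and 0.83 ± 0.53 (edgeR unadjusted p = 0.135) in Low mice, and -0.15 ± 0.44 (edgeR unadjusted p = 0.73) and 0.47 ± 0.57 (edgeR unadjusted p = 0.427) in High mice.

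Several of these genes are also expressed by tendon cells. The 11 markers of tendon and the myotendinous junction were all above 0 in every mouse, and 10 of 11 had positive values with running in Low mice (median 0.83) and between controls (median 0.83). Both comparisons share the 4 Low Control mice. In High mice 9 of the 11 had positive values with running (median 0.27), and adjusted for frailty 10 of 11 did (median 0.62). Leaving out Fmod and Thbs4, which are among the 43 genes, the other 9 summed to 132 to 212 CPM in Low Control, 142 to 394 CPM in Low Run, 182 to 278 CPM in High Control and 126 to 382 CPM in High Run mice. The mean sums were 162, 257, 234 and 270 CPM in that order. Ankrd1, a stretch-induced gene among these 9, made up a mean of 70.1, 77.3, 35.9 and 71.8 CPM of them. Chad differed by 1.82 ± 0.69 (edgeR unadjusted p = 0.0175) with running in Low mice and by 1.92 ± 0.72 (edgeR unadjusted p = 0.0174) between controls, and Comp by 1.603 ± 0.66 (edgeR unadjusted p = 0.0267) and 1.65 ± 0.69 (edgeR unadjusted p = 0.0299). Ankrd1, also on this list, went the other way between controls, at -0.97 ± 0.23 (edgeR unadjusted p = 0.000669). At an unadjusted edgeR p under 0.05, 3 of the 11 were higher between controls (1.8% of all genes) and 1 lower (4.06%). In Low mice 3 were higher with running (5.92%) and 0 lower (7.52%). For running adjusted for frailty 2 were higher (5.69%) and 1 lower (3.11%). Without D57, Comp with running in Low mice was 1.18 (edgeR unadjusted p = 0.102) and Chad 1.499 (edgeR unadjusted p = 0.0553), and between controls without D23 they were 1.18 (edgeR unadjusted p = 0.141) and 1.70 (edgeR unadjusted p = 0.0519). The mice with the highest sums were D57, D52, D53 and D66. D66 and D52 were also the highest for Col1a1, while D57 (80.8 CPM) and D53 (138 CPM) lay below High Control mice D23 and D25. The part of tendon in the collagen values was not tested.

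Elastic fibres give the matrix its recoil. Eln, elastin, stood at 28.5, 30.3, 24.5 and 31.4 CPM in Low Control, at 20.9, 17.6, 26.6 and 28.7 CPM in Low Run, at 39.7, 30.5 and 30.2 CPM in High Control and at 30.3, 40.8, 36.4 and 44.7 CPM in High Run mice. Every High Run mouse lay above every Low Run mouse, at a log2 fold change of 0.70 ± 0.17 (edgeR unadjusted p = 0.000874, adjusted p = 0.999) and an exact permutation p of 0.0286, the smallest possible for 4 against 4. Without D9 and D62 it was 0.61 (edgeR unadjusted p = 0.00334). Running itself gave -0.29 ± 0.17 (edgeR unadjusted p = 0.105) in Low and 0.18 ± 0.18 (edgeR unadjusted p = 0.33) in High mice, with an interaction of 0.48 ± 0.25 (edgeR unadjusted p = 0.0752). Fbn1, fibrillin 1, which builds the microfibril scaffold of elastin, differed between run groups by 0.17 ± 0.40 (edgeR unadjusted p = 0.678).

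Lysyl oxidases cross-link collagen and elastin. Lox, the main enzyme, stood at 32.5, 68.3, 12.1 and 12.9 CPM in Low Control, at 17.7, 6.23, 14.4 and 20 CPM in Low Run, at 17.6, 14.8 and 17.2 CPM in High Control and at 20.5, 30.5, 23.5 and 35.5 CPM in High Run mice. Low Control mouse D9 was the highest of all mice and D61 the lowest. In Low mice the log2 fold change was -1.11 ± 0.46 (edgeR unadjusted p = 0.0283, adjusted p = 0.358), and -0.41 (edgeR unadjusted p = 0.284) without D9. High Run mice all lay above High Control mice, at 0.73 ± 0.50 (edgeR unadjusted p = 0.162), and above Low Run mice, at 0.92 ± 0.46 (edgeR unadjusted p = 0.0625). The interaction of 1.84 ± 0.68 (edgeR unadjusted p = 0.0156, adjusted p = 0.6) was 0.99 (edgeR unadjusted p = 0.0829) without D9 and D62. With all mice its exact permutation p was 0.042, from run labels permuted within each frailty group. That permutation takes running to have no effect in either group, so it does not test for equal effects in both. Loxl1, needed for elastic fibre upkeep, stood at 13.5, 18.7, 22.0 and 16.6 CPM in Low Control, at 21.5, 20.5, 22.3 and 18.4 CPM in Low Run, at 18.9, 17.8 and 22.1 CPM in High Control and at 20.3, 16.6, 18.2 and 6.20 CPM in High Run mice. D62 was the lowest mouse, and the other High Run mice lay within the range of the controls, with 0.23 ± 0.26 (edgeR unadjusted p = 0.403) and -0.36 ± 0.28 (edgeR unadjusted p = 0.227) for running. Loxl2 had -0.57 ± 0.30 (edgeR unadjusted p = 0.0802) in High mice, which was -0.33 without D62 and also -0.33 without High Control mouse D23.

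Among the proteases, Mmp2, gelatinase A, stood at 53.9, 59.7, 42.3 and 45.2 CPM in Low Control, at 51.5, 48.3, 78.3 and 47.2 CPM in Low Run, at 48.5, 75.4 and 51.3 CPM in High Control and at 53.9, 76.1, 72.7 and 30.9 CPM in High Run mice. The groups overlapped, at 0.16 ± 0.25 (edgeR unadjusted p = 0.525) in Low and 0.00 ± 0.27 (edgeR unadjusted p = 0.999) in High mice. Mmp14, the membrane-bound activator of Mmp2, was highest in D9 (41.1 CPM) and D62 (27.4 CPM), and gave -0.54 ± 0.30 (edgeR unadjusted p = 0.0911) and 0.25 ± 0.33 (edgeR unadjusted p = 0.458). Of 17 other matrix proteases and inhibitors, Mmp12, the macrophage elastase, had 1.92 ± 0.57 (edgeR unadjusted p = 0.00384) for running adjusted for frailty, and Adamts1, which cleaves versican, had -0.53 ± 0.16 (edgeR unadjusted p = 0.00505) in Low mice and -0.74 ± 0.18 (edgeR unadjusted p = 0.000807) between controls. Mmp12 is a low transcript, with means of 0.549 CPM in Low Control, 1.66 in Low Run, 0.38 in High Control and 2.01 in High Run mice.

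Matricellular proteins are secreted into the matrix as signals. Thbs1, thrombospondin 1, an activator of latent transforming growth factor beta (TGF-beta), stood at 116, 156, 31.8 and 32.7 CPM in Low Control, at 80.2, 20.5, 52.4 and 72.1 CPM in Low Run, at 58.2, 44.3 and 48.1 CPM in High Control and at 63.8, 100.2, 106 and 77.1 CPM in High Run mice. Every High Run mouse lay above every High Control mouse, at 0.79 ± 0.51 (edgeR unadjusted p = 0.142) and an exact permutation p of 0.0571, while Low mice had -0.58 ± 0.47 (edgeR unadjusted p = 0.23) and the interaction was 1.37 ± 0.69 (edgeR unadjusted p = 0.0651), or 0.89 (edgeR unadjusted p = 0.178) without D9 and 0.95 (edgeR unadjusted p = 0.175) without D9 and D62. Low Control mice D8 and D9 held the 2 highest values and D11 and D98 2 of the lowest 3. Thbs4, a tendon and junction protein, stood at 313, 242, 134 and 121 CPM in Low Control, at 411, 134, 261 and 216 CPM in Low Run, at 169, 245 and 235 CPM in High Control and at 239, 402, 377 and 151 CPM in High Run mice. D57, D52 and D53 were the highest, with 0.34 ± 0.37 (edgeR unadjusted p = 0.374) and 0.43 ± 0.40 (edgeR unadjusted p = 0.295) for running. Ccn1 stood at 238, 118, 66.8 and 50.2 CPM in Low Control, at 118, 78.2, 66.4 and 145 CPM in Low Run, at 130.3, 87.7 and 114 CPM in High Control and at 58.2, 84.1, 124 and 94.9 CPM in High Run mice. Ccn2, connective tissue growth factor, stood at 97.1, 90.9, 34.8 and 20.4 CPM in Low Control, at 70.4, 36.6, 49.4 and 72.1 CPM in Low Run, at 72.0, 70.7 and 51.4 CPM in High Control and at 37.2, 61.6, 85.9 and 49.3 CPM in High Run mice. For both genes the 4 Low Control mice covered the whole range of the 15 mice, with D8 highest and D98 lowest. Running gave -0.22 ± 0.39 (edgeR unadjusted p = 0.592) and -0.09 ± 0.40 (edgeR unadjusted p = 0.825) in Low and -0.29 ± 0.42 (edgeR unadjusted p = 0.502) and -0.15 ± 0.43 (edgeR unadjusted p = 0.739) in High mice. Pdgfra, the receptor that marks muscle fibroblasts, stood at 27.9, 24.8, 24.2 and 29.1 CPM in Low Control, at 23.2, 24.9, 26.4 and 21.3 CPM in Low Run, at 23.3, 27.9 and 24.6 CPM in High Control and at 36.7, 24.3, 23.8 and 16.6 CPM in High Run mice. Its log2 fold changes were -0.15 ± 0.18 (edgeR unadjusted p = 0.439) and 0.00 ± 0.20 (edgeR unadjusted p = 0.989) with running and -0.07 ± 0.20 (edgeR unadjusted p = 0.731) between controls.

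Some genes had values that did not overlap between groups. Higher in every mouse of the first group were 1 gene for Low Run against Low Control (Sparc, where 3.35% of all genes were), 2 for High Run against High Control (Lox and Thbs1, 3.47%), 3 for High Control against Low Control (Col1a1, Col1a2 and Col12a1, 5.13%) and 2 for High Run against Low Run (Eln and Lox, 0.721%). Lower were 2 (Col5a3 and Lamc1, 3.59%), 0 (3.6%), 1 (Lamc1, 5.27%) and 0 (0.774%) in the same order.

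Other genes of matrix production and signalling were read from lists of each pathway. At an unadjusted edgeR p under 0.05, 5.92% of all genes were higher and 7.52% lower with running in Low mice. In High mice these shares were 3.28% and 1.9%. Of 20 genes for collagen biosynthesis and secretion, 2 were higher and 1 lower with running in Low mice at an unadjusted edgeR p under 0.05. Ppib, a collagen prolyl isomerase, had 0.35 ± 0.11 (edgeR unadjusted p = 0.00705) and Serpinh1, the collagen chaperone HSP47, 0.71 ± 0.30 (edgeR unadjusted p = 0.0296), while Mia3, which loads procollagen into carriers, had -0.52 ± 0.18 (edgeR unadjusted p = 0.00948). Without D9 Serpinh1 had 0.52 (edgeR unadjusted p = 0.0949) and Mia3 had -0.33 (edgeR unadjusted p = 0.0442). Of 21 genes of TGF-beta signaling 0 were higher and 3 lower in Low mice, among them the co-receptor Tgfbr3 at -0.66 ± 0.25 (edgeR unadjusted p = 0.0172) and the signal transducer Smad4 at -0.50 ± 0.20 (edgeR unadjusted p = 0.0235), and 0 passed in either direction in High mice. Without D9 Tgfbr3 had -0.25 (edgeR unadjusted p = 0.114) and Smad4 had -0.27 (edgeR unadjusted p = 0.128). Of 19 matrix receptors, Dag1, the dystroglycan that binds Lama2 laminin, was the only one below an unadjusted p of 0.05 in Low mice, at -0.68 ± 0.22 (edgeR unadjusted p = 0.0069) with all mice and -0.46 (edgeR unadjusted p = 0.0346) without D9, and 0 passed in High mice. Of 15 targets and regulators of YAP, TAZ and SRF, 0 were higher and 3 lower in Low mice, and 1 was higher and 1 lower in High mice. Ankrd1, a stretch-induced protein, had 1.00 ± 0.23 (edgeR unadjusted p = 0.000498) in High mice, with means of 35.9 CPM in High Control and 71.8 CPM in High Run, and -0.97 ± 0.23 (edgeR unadjusted p = 0.000669) between controls. Srf itself had -0.42 ± 0.11 (edgeR unadjusted p = 0.00203) in High mice.

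Markers of other cell types were read in the same comparisons. At an unadjusted edgeR p under 0.05, 1.52% of all genes were higher in High Run against Low Run. For running adjusted for frailty 3.11% were lower, and 5.24% had a positive interaction. Of 6 Schwann cell markers all had positive values in High Run against Low Run, 4 of them at an unadjusted edgeR p under 0.05, and their sum was highest in D62, at 336.5 CPM against 71.9 to 215 CPM elsewhere. Of 6 adipocyte markers all had negative values for running adjusted for frailty (5 with length and GC offsets), 4 of them at an unadjusted p under 0.05. Of 5 erythroid markers all had positive interaction values at an unadjusted p under 0.05, with sums of 489 to 2380.2 CPM in Low Control, 243.5 to 825 CPM in Low Run, 312 to 488 CPM in High Control and 384.5 to 3859.8 CPM in High Run mice. None of these markers was at 0 in any mouse, and their part in the matrix values was not tested.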

How the data were processed

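Gastrocnemius RNA was sequenced after polyA selection, with 1 library per mouse. The authors aligned reads with STAR (2.7.9a) to mm10 and deposited raw counts per Ensembl gene, made with featureCounts from uniquely aligned pairs on the annotated strand, leaving out mitochondrial genes. A table of variance-stabilized values was deposited as well and was not used here. Depth was 19395125 to 30699216 counts per mouse. CPM, each count divided by its effective library size (trimmed mean of M-values, TMM) and scaled, was computed here.

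All 15 mice entered 1 edgeR (4.0.16) quasi-likelihood model with a mean per group, after filterByExpr, and Benjamini-Hochberg adjustment ran over 16920 genes at a false discovery rate of 0.1. Running adjusted for frailty came from a separate edgeR model of the same mice with additive terms for frailty and running. That additive model holds no interaction term. Log2 fold changes are given ± SE. Exact two-sided permutation tests used the mean log2(CPM + 0.5), with a smallest p of 0.0286 within a pair of groups and 0.000408 adjusted for frailty. They stand unadjusted beside the edgeR values. For running adjusted for frailty and for the interaction, run labels were permuted within each frailty group. Exon lengths, the union of all annotated exons of a gene, came from GENCODE and upstream sequences from RefSeq (GRCm38.p6). Pooled over genes, counting error is far below the spread between mice, whose counts within a group differed by a chi-square of 17.2 to 215 per degree of freedom. The pooled value does not describe low transcripts such as Timp1, with 7 to 89 counts per mouse, for which counting error weighs more. The edgeR models were tested on simulated data.

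The 43 genes and all lists were chosen with earlier results of these data known. Per-mouse values are given for 24 genes, namely 1 or more of each role plus those with the smallest p. Alternatives were DESeq2 (1.42.0), voom from limma (3.58.1), another normalization, other count filters, length and GC offsets, fits of the compared groups alone, and fits without single mice or without D9 and D62. Fits without single mice were extended to the pathway and marker genes named, and to Loxl2, after the data had been seen.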

Additional observations from a re-analysis of the deposited data

Results flagged for a closer look

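Among 81 sets of 4 mice, 6 held a mouse whose gap to the nearest of the others, divided by the range of the group, passed the 95% limit of Dixon's test, where chance gives about 1 in 20. Low Run mouse D66 was high for Col1a1 (309 CPM) and for Mmp2 (78.3 CPM). Low Control mouse D9 was low for Col6a1 (16.7 CPM), high for Lamc1 (134 CPM) and low in its median log2 deviation over the 43 genes (-0.41). High Run mouse D49 was high for Lama2 (49.2 CPM), the laminin chain of muscle fibres.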

How the results depend on the processing

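No gene of the 43 was called by edgeR or voom under any alternative, and DESeq2 called 1 (Timp1, running adjusted for frailty), although voom called 45 other genes in High Run against High Control. The median interaction of -0.12 was 0.22 without mice D9 and D62, and -0.20 to 0.08 when single mice were left out. Leaving out single mice moved the median for running from -0.04 to 0.18 in Low and from -0.16 to 0.23 in High mice. Adjusting for gene length and GC content moved the median of all genes to 0.22 for running in High mice, 0.24 for the interaction and 0.27 between run groups, and the 43 genes lay -0.11, -0.21 and -0.01 from it. The Timp1 interaction of -0.18 turned to 0.23 by voom, 0.15 with length and GC offsets and 0.27 without D9 and D62, and ran from -0.56 to 0.075 without single mice. Timp1 between run groups (0.17) ran from -0.064 to 0.42 without single mice. The cause of these shifts was not tested. Genes at an unadjusted edgeR p under 0.05 with running in Low mice, 6 in all, were 14 without a count filter, 4 without D9 and 11 without D62, and for running adjusted for frailty, 3 in all, they were 2 without D8 and 8 without D62. The interaction count of 1 was 4 without D11 and 6 without a count filter, and the count of 1 between controls was 0 without D9, 3 without D11 and 6 without a count filter. The shares of all genes under these settings are not given, so these counts do not show a shift particular to the 43 genes. Low transcripts such as Timp1 are limited by depth. No paired analysis was possible because the labels give the mice no numbers shared between groups.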
